A study of Mus musculus with 4 samples.

Results

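The genotype by time contrast asks whether the difference between Hilpda knockout and wild-type macrophages was the same after 12 h and after 24 h of fatty acid loading. For each probe set it is the log2 level in knockout minus wild type at 24 h, less the same difference at 12 h. Equally, it is the knockout's change from 12 h to 24 h less the wild type's change. A value below 0 means that knockout lost ground to wild type between the times, and a value above 0 that it gained. The members were the probe sets with 1 gene symbol whose mean over the 4 arrays lay at or above the 60th percentile of such probe sets, a log2 level of 4.20. They numbered 9409 of the 41345 probe sets on the array and stood for 9089 of the 22180 genes that have such a probe set. Just inside that limit was Cxcl2 with a contrast of 0.06, and just outside it Col3a1 with -0.03.

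The cells were macrophages grown for 7 days from bone marrow of mice aged 8 to 12 weeks, in medium to which 15% of L929 fibroblast supernatant had been added to supply CSF1, the growth factor of macrophages. Wild type means Hilpdaflox/flox littermates, which carry the floxed gene without deletion, and knockout means HilpdaΔMΦ mice, in which macrophages lack it. Both genotypes received 600 µM fatty acids, 1 part palmitate to 2 parts oleate, bound to albumin, for 12 h or 24 h, which gives 4 groups: wild type 12 h, knockout 12 h, wild type 24 h and knockout 24 h. Each group was 1 whole-transcript array hybridised with pooled RNA of 3 samples. The contrast therefore adds up the errors of 4 arrays, has no replicate error of its own and was not tested. The labels name neither the promoter that drove the deletion nor the part of Hilpda that was removed, and untreated cells were not analysed here. In bulk RNA, fewer cells of a type and less RNA per cell cannot be told apart.

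HILPDA is a small protein of the lipid droplet surface that inhibits adipose triglyceride lipase, the enzyme that opens the breakdown of stored triglyceride. Fatty acids taken up by a macrophage are esterified into droplets, oxidised, or sensed by nuclear receptors such as the PPARs, which raise genes of fatty acid handling. Cholesterol is governed by a separate pair of controls, SREBP2 for synthesis and uptake and the LXRs for export.

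All 16 measured genes of macrophage identity were members, with Lyz2, the macrophage lysozyme, between 12.37 and 12.83 and Csf1r, the CSF1 receptor, between 11.54 and 11.80 on the log2 scale in the 4 arrays. No T or NK cell marker and no mast cell or basophil marker was a member, and 1 of the neutrophil markers was. Stromal and fibroblast markers were present: 12 probe sets of 11 of the 15 measured genes were members, and at 12 h they averaged 6.49 in wild-type and 6.04 in knockout cells, then 7.18 and 6.56 at 24 h. They were thus highest on the wild-type 24 h array, and their part in the results below was not tested. Hilpda itself was at 5.93 and 5.41 at 12 h and 5.47 and 5.27 at 24 h, with a contrast of 0.31. The wild-type 12 h array stood above the other 3 for this gene, and the gap between the genotypes was the smaller one at 24 h. Its single probe set may lie outside the deleted part, so it checks the labels only in part.

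Across the members the contrast had a median of 0.01 and an SD of 0.301, and its central 95% ran from -0.58 to 0.63. Contrasts of at least 2-fold numbered 39 above 0 and 39 below 0, each 0.414% of the members, and together (0.829%) they came from 76 genes. Past 1.5-fold there were 305 above 0 (3.24%) and 232 below 0 (2.47%), together 5.71%. Of all members 52.5% had a contrast above 0. These shares stand beside every list count given below. As a yardstick of noise, 1420 probe sets of olfactory, vomeronasal and trace amine receptors, genes that macrophages hardly use, had an SD of 0.406, with 2.18% past 2-fold and 14.4% past 1.5-fold. The members' shares were thus below those of the receptors, which were not held to the level limit. The spread narrowed with level, from an SD of 0.417 in the dimmest of 5 equal bins of members to 0.20 in the brightest. Of the 78 large contrasts 40 lay in the dimmest bin, 27 in the next, 7 and 4 in the 2 after that, and 0 in the brightest. In 24 of the 78 at least 1 array was under the level limit.

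The 2 genotype differences had unlike spreads. Knockout minus wild type had an SD of 0.184 over the members at 12 h and 0.277 at 24 h, and 112 members (1.19%) were past 1.5-fold at 12 h against 439 (4.67%) at 24 h. The time differences had an SD of 0.349 in wild type and 0.288 in knockout. The narrowest of the 4 spreads was thus that between the 12 h arrays, and the widest was the time difference of wild type.

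**Figure D1:**
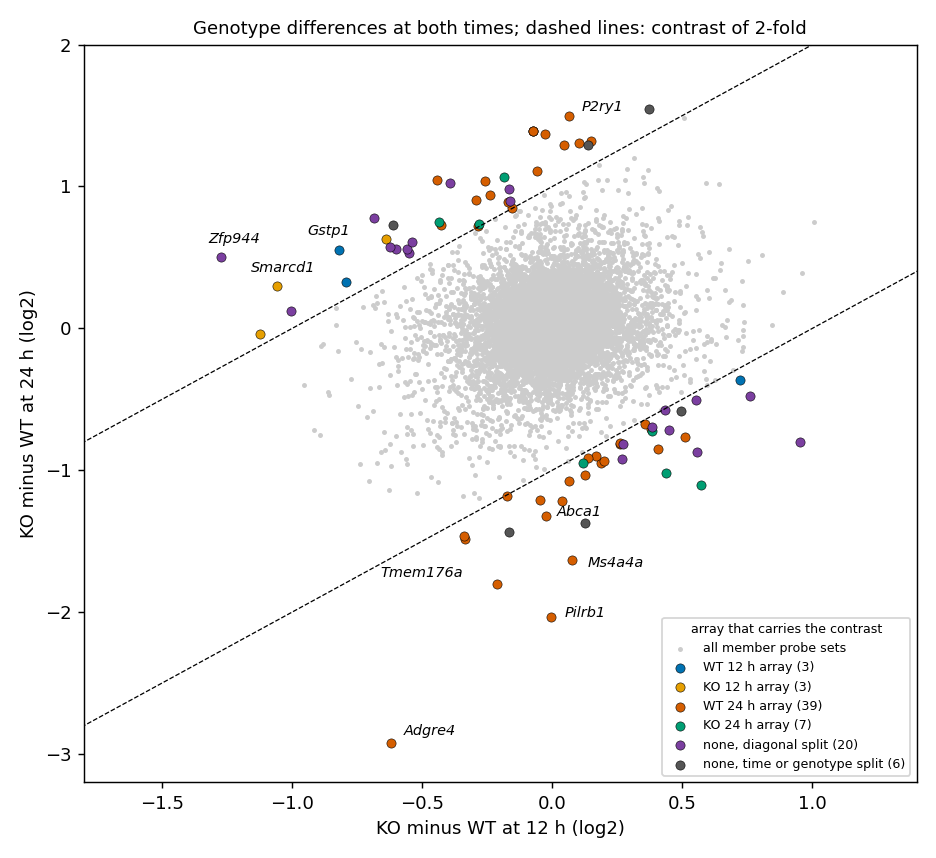
Knockout minus wild type at 12 h (x axis) and at 24 h (y axis), both in log2, for all 9409 member probe sets (grey) and the 78 with a contrast of at least 2-fold (coloured by the array that stands apart from the other 3). The dashed lines mark a contrast of 2-fold. Many coloured points lie near 0 on the x axis and far from 0 on the y axis, and 39 of them belong to the wild-type 24 h array.

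To describe where a contrast came from, an array was said to carry it when that array was the highest or the lowest of the 4 and its gap to the nearest other exceeded the range of the other 3. Probe sets without such an array were classed by their upper pair: a time split, a genotype split, or a diagonal split, in which wild type 12 h and knockout 24 h lie on one side and knockout 12 h and wild type 24 h on the other. Of the 78 contrasts past 2-fold, the wild-type 24 h array carried 39 (50%), standing high in 22 and low in 17. The knockout 24 h array carried 7, the wild-type 12 h array 3 and the knockout 12 h array 3. A further 20 were diagonal splits, 4 time splits and 2 genotype splits. So 39 of the 52 contrasts carried by any single array rested on wild type at 24 h. By this rule the knockout time difference is always smaller in size than that of wild type in such cases. In the 39 it ran from -0.48 to 1.47 and was past 1.5-fold in 5. The share of 50% depended on the settings: it was 22.3% with no level limit, 28.7% with the limit at the 40th percentile, 66.7% at the 80th, and 23.1% when the gap had to exceed 2 times the range of the other arrays.

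That array also stood apart most often among members of any size. It did so in 2023 of 9409 (21.5%), against 1276 (13.6%) for knockout 24 h, 758 (8.06%) for knockout 12 h and 731 (7.77%) for wild type 12 h. Among the receptor probe sets the 4 arrays shared such cases more evenly, with 12.5% for wild type 24 h, 15.7% for knockout 24 h and 12.0% for each array of 12 h. The share of the wild-type 24 h array was 18.4% in the dimmest bin of members and 23.9% in the brightest. Among the 72 contrasts past 1.5-fold whose 4 levels all lay at or above the 80th percentile (6.78), that array carried 34, in 23 of them as the highest. A limit on every array can drop probe sets in which 1 array is low. In the 72 any single array stood high in 35 and low in 19, against 175 and 168 of all 537 members past 1.5-fold. With 1 array per group, a property of that pool or that hybridisation and an effect of genotype and time cannot be told apart.

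**Figure D2:**
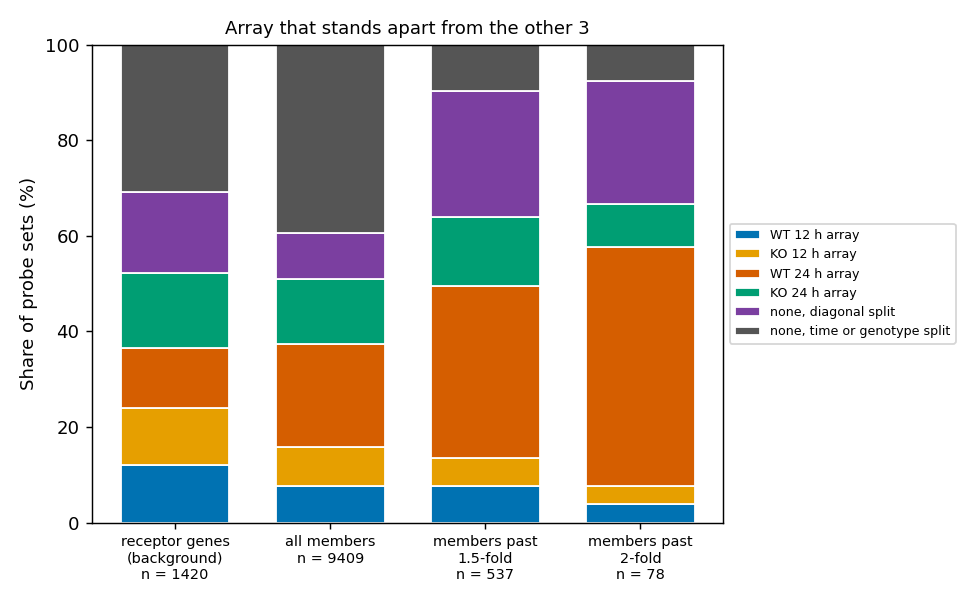
Share of probe sets (y axis, %) in which each array stands apart from the other 3, or in which none does, for 1420 receptor probe sets, all 9409 members, and the members with contrasts past 1.5-fold (537) and past 2-fold (78). The orange segment of the wild-type 24 h array is 12.5% in the receptors, 21.5% of members and 50% of the large contrasts. These sets are unlike, because the receptors had no level limit and no limit on the size of the contrast. Without the level limit the share of the contrasts past 2-fold was 22.3%.

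The contrast can also be seen as a difference between time courses. Over the 9409 members the wild-type and knockout time differences, which share no array, correlated at 0.568 (Pearson, a description over probe sets of the same arrays). Of 101 members (1.07%) at least 2-fold higher at 24 h than at 12 h in wild type, the median difference was 1.26 there and 0.78 in knockout, and it was smaller in knockout in 100. Of 81 members (0.861%) at least 2-fold lower at 24 h in wild type, the medians were -1.24 and -0.72, and the knockout difference was smaller in 65. These members were picked on the wild-type value, which favours a larger value there. Picked on the knockout value instead, 42 members (0.446%) higher at 24 h had a median of 1.25 in knockout and 1.44 in wild type, and wild type was at least as large in 33. The 55 members (0.585%) lower at 24 h in knockout had medians of -1.28 in knockout and -1.19 in wild type, and wild type was smaller in 41. The upward differences were thus larger in wild type by either choice, whereas for the downward ones the answer turned with the choice.

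**Figure D3:**
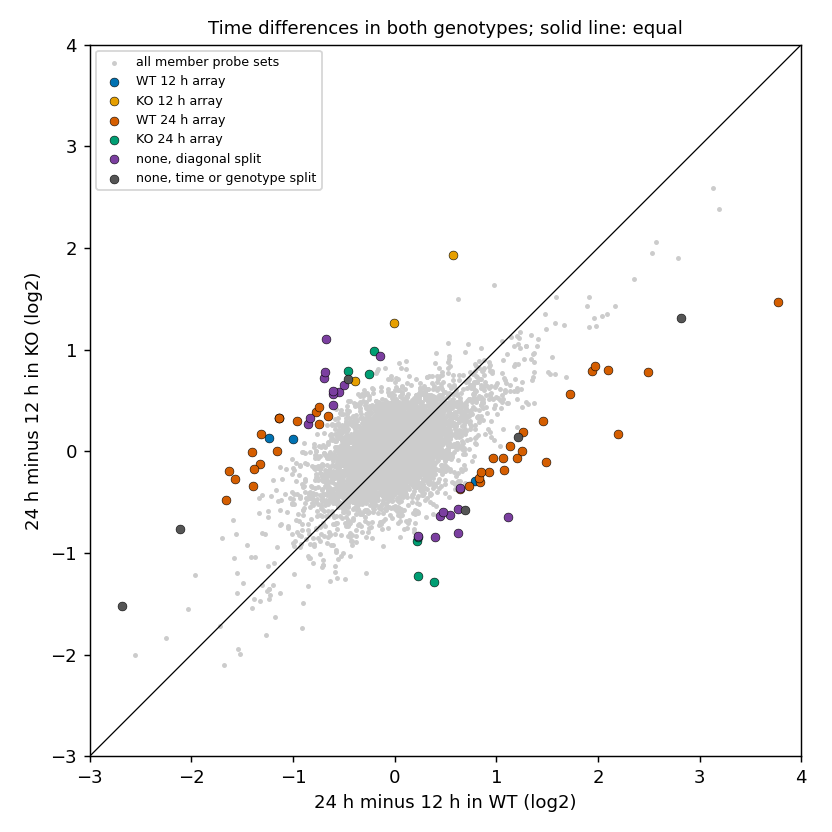
Level at 24 h minus 12 h in wild type (x axis) and in knockout (y axis), in log2, for all members (grey) and the 78 with contrasts past 2-fold (coloured by array). The solid line marks equal differences. Orange points lie farther from 0 on the x axis than on the y axis, which the rule for a carrying array requires. In 5 of the 39 the knockout too differs between the times by over 1.5-fold, up to 1.47.

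Several of the lowest contrasts belonged to surface receptors of myeloid cells that were high in wild type at 24 h. Between them ranked Olfr1360 at -1.75 and the microRNA hairpins Mir3091 at -1.68 and Mir1933 at -1.46, kinds of name that were passed over below. The hairpins were carried by a low knockout 24 h array, and Olfr1360 was a diagonal split. Adgre4, an adhesion receptor related to F4/80, was at 3.23 in wild-type and 2.61 in knockout cells at 12 h, then at 7.0 and 4.08 at 24 h, a contrast of -2.30 (4.92-fold), the lowest of all members. The wild-type 24 h array stood far above, and the other 3 lay under the level limit. Pilrb1, an activating immunoglobulin-like receptor, was at 3.90 and 3.89 at 12 h and 6.09 and 4.06 at 24 h, a contrast of -2.03. Only the wild-type 24 h array was high for it, and here too the other 3 lay under the level limit. The paralogs of Pilrb1 share sequence, so the signal may not be of this gene alone. Clec4a1, a C-type lectin receptor of macrophages and dendritic cells, was at 6.86 and 6.98 at 12 h and 9.67 and 8.30 at 24 h, a contrast of -1.50. Both genotypes were higher at 24 h here and wild type the more so, which makes it a time split. Its neighbours in the lectin cluster lay the same way, with Clec4a3 at -0.71 and Clec4a2 at -0.60. That cluster, a list added after the values were seen, had 3 of 7 members lower by 1.5-fold and a median of -0.19 (-0.35 with the limit at the 40th percentile).

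MS4A and TMEM176 genes, which encode related membrane proteins that cross the membrane 4 times and include several macrophage markers, had the lowest median of the lists described. It was -1.05 over 8 member probe sets (-0.65 with the limit at the 80th percentile), against 0.01 over all members. Of the 8, 6 were lower by at least 1.5-fold, 4 of them by 2-fold, and 0 higher. Among all members 2.47% were lower by 1.5-fold and 0.414% by 2-fold. Ms4a4a was at 5.68 in wild-type and 5.75 in knockout cells at 12 h, then at 8.17 and 6.54 at 24 h, a contrast of -1.71. Tmem176a was at 5.36 and 5.14, then 6.84 and 5.04, a contrast of -1.59. Tmem176b, its neighbour on the chromosome, was at 6.89 and 6.55, then 8.83 and 7.35, a contrast of -1.15. In all 3 the wild-type 24 h array was the highest by a clear gap, and for Tmem176a the knockout level at 24 h was no higher than at 12 h. Ms4a6b had a contrast of -1.13, Ms4a6c of -0.96 and Ms4a14 of -0.65, each carried by the same array. Ms4a7 was at -0.36 and Ms4a6d at 0.03, with both genotypes higher at 24 h. The genes of this family resemble one another in sequence, and cross-hybridisation between them was not tested. Beside them the stromal markers were also highest in wild type at 24 h. In the contrast 0 of their 12 probe sets reached 1.5-fold, the lowest being Col1a2 at -0.39. All 12 were lower in knockout at both times, with a median genotype difference of -0.49 at 12 h and -0.66 at 24 h. The wild-type 24 h array carried 6 of the 12, and 9 had a contrast below 0.

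**Figure D4:**
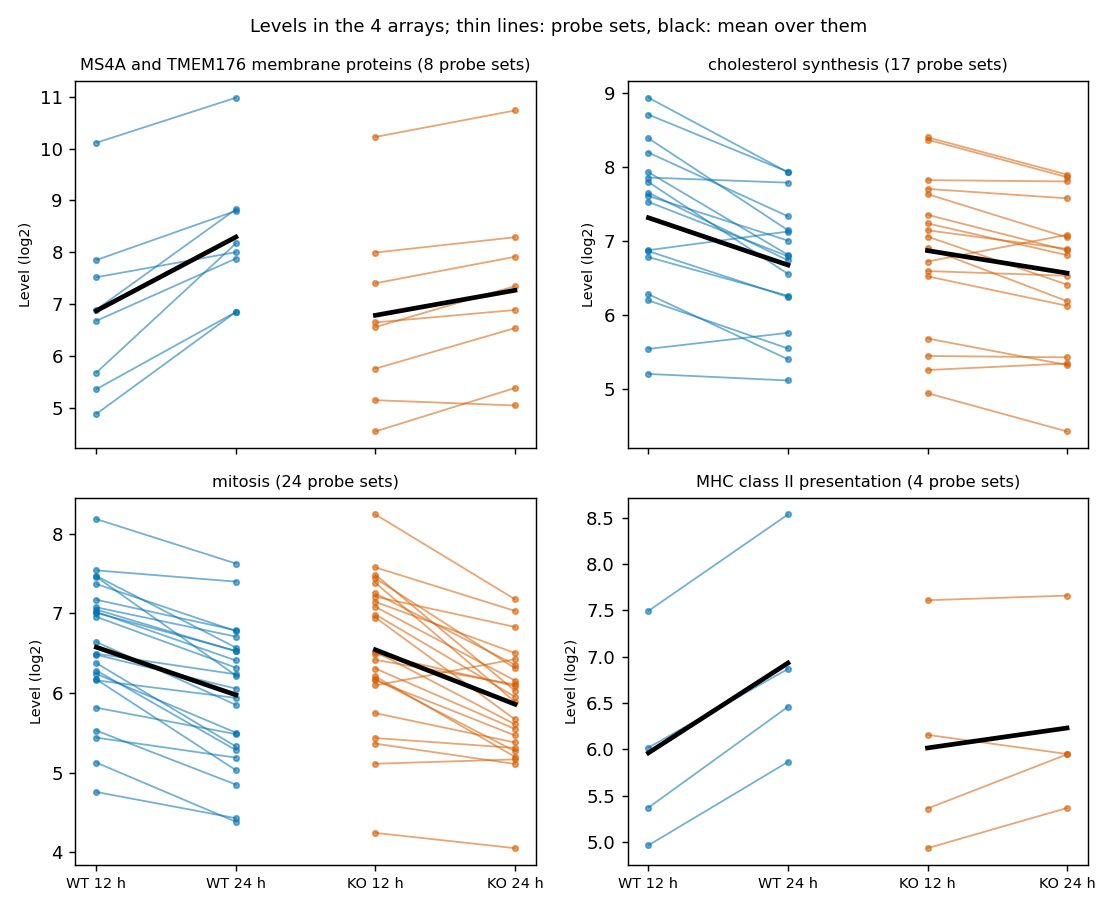
Log2 level (y axis) of the member probe sets of 4 gene lists in the 4 arrays (x axis, wild type in blue and knockout in orange), with the mean over probe sets in black and identical probe sets drawn once. The mean of the MS4A and TMEM176 genes stood at 6.87 and 8.29 in wild type but 6.78 and 7.27 in knockout (12 h, then 24 h), and that of cholesterol synthesis at 7.31 and 6.67 in wild type and 6.87 and 6.56 in knockout.

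Genes of MHC class II, the proteins that present peptides to helper T cells, had the next lowest median. It was -0.75 over 4 members (-0.61 with the level limit at the 40th percentile and -0.99 at the 80th). All 4 were below 0, and H2-Aa and H2-Ab1, the chains of the I-A molecule, were lower by more than 1.5-fold. H2-Aa was at 6.02 in wild-type and 6.16 in knockout cells at 12 h, then at 6.87 and 5.95 at 24 h, a contrast of -1.05. H2-Ab1 was at 7.49 and 7.61, then 8.53 and 7.66, a contrast of -0.99. For both, 3 arrays lay close together and wild type 24 h stood above them. H2-Eb1, the I-E beta chain, had a contrast of -0.50, and H2-DMa, which helps load peptides, -0.47. Ciita, the master coactivator of these promoters, was too dim to be a member, at 3.74 and 3.60 at 12 h and 4.48 and 3.62 at 24 h. RefSeq promoter windows (build GRCm38.p6, 250 bases before to 50 after the start) are printed for the 2 members that hold CTGATTGG, the Y box typical of class II promoters, shown in capitals. The windows are chr17:34287774-34288073 on the minus strand for H2-Aa and chr17:34305617-34305916 on the plus strand for H2-Eb1.
H2-Aa: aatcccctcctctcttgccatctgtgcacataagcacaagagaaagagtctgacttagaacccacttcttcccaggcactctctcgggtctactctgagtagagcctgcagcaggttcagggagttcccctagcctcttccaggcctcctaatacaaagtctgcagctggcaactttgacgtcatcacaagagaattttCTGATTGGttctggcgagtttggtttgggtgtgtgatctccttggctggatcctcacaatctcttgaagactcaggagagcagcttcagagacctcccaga
H2-Eb1: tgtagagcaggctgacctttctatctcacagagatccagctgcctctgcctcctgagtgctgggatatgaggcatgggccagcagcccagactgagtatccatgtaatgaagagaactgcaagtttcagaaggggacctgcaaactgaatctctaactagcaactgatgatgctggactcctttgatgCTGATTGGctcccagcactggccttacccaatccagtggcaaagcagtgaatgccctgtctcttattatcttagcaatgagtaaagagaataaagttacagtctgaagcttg
Searched on both strands, the motif occurred in 2 of the 4 windows listed for 3 of the member genes, and in 4.10% of 32851 windows of the same length for all genes. A match describes letters and not binding.

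Other genes of macrophage phenotype showed the same array high, or the knockout 24 h array low. Abca1, the cholesterol exporter and a classical LXR target, was at 7.22 in wild-type and 7.19 in knockout cells at 12 h, then at 9.31 and 7.99 at 24 h, a contrast of -1.30. Both genotypes were higher at 24 h and the wild-type 24 h array stood alone at the top. The list of LXR targets did not share this, with a median of -0.00 over 10 probe sets and 1 past 1.5-fold in each direction. The member above 0 was Nr1h3, the gene of LXR alpha, at 0.76, and Abcg1, a partner exporter, was at -0.16. Alternative activation markers had a median of -0.40 over 5 members, all below 0, with Mrc1, the mannose receptor, past 1.5-fold. Mrc1 was at 7.11 and 7.37 at 12 h and 10.31 and 9.76 at 24 h, a contrast of -0.81. Its time difference was large in both genotypes, and knockout started higher and ended lower.

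Macrophage identity genes had a median of -0.21 over 16 members, with 12 below 0, 2 lower by 1.5-fold and 0 higher. Cx3cr1, the fractalkine receptor, was at 6.99 in wild-type and 6.71 in knockout cells at 12 h, then at 6.71 and 5.51 at 24 h, a contrast of -0.92. In this case the knockout 24 h array was low and the other 3 agreed closely. Itgam, the integrin chain CD11b, was at 10.18 and 10.12, then 10.66 and 9.95, a contrast of -0.66 carried by wild type 24 h. Nearer 0 were Trem2 at -0.01, Cd68 at 0.13 and Spi1, the gene of the lineage factor PU.1, at -0.02. These 3 are examples and not typical of the list, whose highest value was 0.13.

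Several signalling genes had the wild-type 24 h array high in the same manner. Bcl3, a nuclear partner of NF-kappa-B, was at 7.46 in wild-type and 7.53 in knockout cells at 12 h, then at 8.31 and 7.23 at 24 h, a contrast of -1.14. Gab1, a docking adaptor of growth factor receptors, was at 5.69 and 5.81, then 7.41 and 6.38, a contrast of -1.16. Ifitm2, an interferon-induced membrane protein gene, was at 7.74 and 7.79, then 9.11 and 8.26, a contrast of -0.90. In each of these 3 genes the 12 h arrays lay close together, and the genotypes parted at 24 h. The interferon-stimulated list had a median of -0.10 over 11 members (0.05 with the limit at the 80th percentile), with 0 past 1.5-fold. Pot1b, a telomere-binding protein gene that lies beside Adgre4, had levels of 6.15 and 6.19, then 7.40 and 6.19, and a contrast of -1.25. Its 3 lower arrays were almost equal. The other large contrasts below 0 carried by this array included Zfp931 at -1.27, the inositol phosphate kinase gene Itpkc at -1.26, Atrnl1 at -1.16, the receptor kinase gene Grk3 and the potassium channel gene Kcnj10, both at -1.13, and the histone gene H2bc18 at -1.09.

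On the side above 0, the wild-type 24 h array was the low one in 17 of the 39 contrasts past 2-fold. P2ry1, a receptor for ADP, was at 6.94 in wild-type and 7.0 in knockout cells at 12 h, then at 5.31 and 6.81 at 24 h, a contrast of 1.44. Kdr, which encodes VEGF receptor 2, was at 5.82 and 5.97, then 4.16 and 5.48, a contrast of 1.17. Gprc5b, an orphan receptor of class C, was at 6.39 and 6.49, then 5.01 and 6.31, a contrast of 1.20. In these genes the wild-type 24 h array was the low one, and knockout at 24 h lay nearer to the 12 h levels. Of the other endothelial markers, Vwf was a member at 0.39 and Eng at 0.13. The median of the 3 endothelial members was 0.39. Over the endothelial markers that passed other limits it was 0.13 at the 40th or 80th percentile, and -0.02 with no limit. Htr2b, a serotonin receptor gene, was at 6.68 and 6.81, then 4.0 and 5.29, a contrast of 1.15. It was lower at 24 h in both genotypes and is a time split. Fat3, an atypical cadherin gene, had a contrast of 1.30, Serpinb1c of 1.20, Adcy2, an adenylyl cyclase gene, of 1.16 and Egr2, an immediate early factor, of 1.01.

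Cks2, a small partner of the cyclin-dependent kinases, had 4 member probe sets. Of these, 3 had identical values and so count as 1 measurement, at 6.17 in wild-type and 6.10 in knockout cells at 12 h. At 24 h they were at 5.03 and 6.42, a contrast of 1.47. The fourth had a contrast of 0.80, so the direction was shared and the size was not. The rest of the mitosis list lay elsewhere. The list's median was -0.09 over 26 probe sets (-0.46 with the level limit at the 80th percentile). Its 4 probe sets past 1.5-fold above 0 were all of Cks2, 3 of them identical. Below 0 and past 1.5-fold were Kif20a, a kinesin of cell division, at -0.64 and the mitotic kinase gene Plk1 at -0.59. Kif20a was at 6.95 in both genotypes at 12 h and at 6.32 and 5.67 at 24 h, with the knockout 24 h array lowest. All 26 probe sets were lower at 24 h in wild type and 22 were in knockout. The median time difference of all members was -0.02 in wild type and 0.00 in knockout.

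The list of PPAR targets and fatty acid handling had a median of 0.19 over 19 probe sets, with 15 above 0 and 4 below, against 52.5% above 0 over all members. There were 4 higher by 1.5-fold and 0 lower, and the wild-type 24 h array carried 9. Fabp4, the fatty acid-binding protein of adipocytes and macrophages, was at 8.19 in wild-type and 8.70 in knockout cells at 12 h, then at 7.55 and 9.03 at 24 h, a contrast of 0.98. Knockout was the higher at both times and the genotypes parted further at 24 h. Fabp5, its close relative, had 4 probe sets with contrasts from 0.41 to 0.74, each with the wild-type 24 h array low. The highest of them was at 7.26 and 7.24, then 6.64 and 7.36. Pdk4, the kinase that shuts off pyruvate dehydrogenase, was at 5.32 and 4.49, then 6.29 and 6.13, a contrast of 0.66. Knockout was the lower at 12 h, and the genotypes nearly met at 24 h. Both were higher at 24 h, and by the gap rule Pdk4 is a time split. Cpt1a, which brings fatty acids into mitochondria, was at 0.00.

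Markers of lipid-associated macrophages, a list that shares Fabp4 and Fabp5 with the former, had a median of 0.16 (mean 0.27) over 16 probe sets, with 3 higher and 0 lower by 1.5-fold. All 3 were of Fabp4 and Fabp5, and Cd9, a tetraspanin, was next at 0.48. The wild-type 24 h array carried 10 of the 16. Lipid droplet genes had a median of 0.17 over 12 members (0.09 with no level limit) and 0 past 1.5-fold. Abhd5, the activator of the lipase that HILPDA inhibits, was at 7.85 and 7.96 at 12 h and 6.92 and 7.52 at 24 h, a contrast of 0.50. Both genotypes were lower at 24 h, and wild type was the lowest. Plin2, the main droplet coat protein, was at 0.18 and Pnpla2, the lipase itself, at -0.02.

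The contrasts of cholesterol synthesis came mainly from 12 h. The list's median was 0.31 over 17 members, with 15 above 0, 5 higher by at least 1.5-fold and 0 lower. All members had 52.5% above 0, and 3.24% higher and 2.47% lower by 1.5-fold. The wild-type 12 h array carried 10 of the 17 and the wild-type 24 h array 0, against 7.77% and 21.5% of all members. Hsd17b7, a sterol ketoreductase gene, was at 6.27 in wild-type and 5.44 in knockout cells at 12 h, then at 5.40 and 5.42 at 24 h, a contrast of 0.86. Fdft1, squalene synthase, was at 8.38 and 7.63, then 7.14 and 7.04, a contrast of 0.66. Msmo1, a sterol methyl oxidase gene, was at 8.19 and 7.70, then 7.33 and 7.57, a contrast of 0.73. In each of the 3 wild type at 12 h was the high array, and the genotypes lay closer together at 24 h. The median time difference of the list was -0.74 in wild type and -0.40 in knockout. Sqle, squalene epoxidase, was at 0.63, Cyp51, lanosterol demethylase, at 0.59, and Hmgcs1, which makes HMG-CoA, at 0.50. Mvk, mevalonate kinase, went the other way at -0.43, with the knockout 24 h array low. The SREBP2 regulation list, which holds regulators of that pathway, had a median of 0.05 over 8 members and 0 past 1.5-fold.

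Promoter windows of 3 of these genes are shown because 15 of the 17 contrasts share a sign and because CCAAT boxes and sterol response elements are the known control letters of this pathway. Capitals mark GATTGG, or its reverse complement CCAATC, in Hsd17b7 (chr1:169969156-169969455, minus strand) and Cyp51 (chr5:4104648-4104947, minus strand). In Hmgcs1 (chr13:119690101-119690400, plus strand) they mark the sterol response element letters TCACNCCAC.
Hsd17b7: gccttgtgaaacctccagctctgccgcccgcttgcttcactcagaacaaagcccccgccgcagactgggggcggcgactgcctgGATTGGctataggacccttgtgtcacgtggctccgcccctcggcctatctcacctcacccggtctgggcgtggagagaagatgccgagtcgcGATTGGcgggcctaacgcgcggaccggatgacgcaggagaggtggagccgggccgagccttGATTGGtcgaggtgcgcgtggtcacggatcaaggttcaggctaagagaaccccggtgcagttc
Cyp51: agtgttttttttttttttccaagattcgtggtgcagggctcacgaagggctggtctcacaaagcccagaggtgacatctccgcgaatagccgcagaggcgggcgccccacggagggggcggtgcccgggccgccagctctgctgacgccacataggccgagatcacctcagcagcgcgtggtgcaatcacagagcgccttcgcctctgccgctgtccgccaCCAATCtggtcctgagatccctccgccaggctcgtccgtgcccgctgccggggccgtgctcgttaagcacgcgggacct
Hmgcs1: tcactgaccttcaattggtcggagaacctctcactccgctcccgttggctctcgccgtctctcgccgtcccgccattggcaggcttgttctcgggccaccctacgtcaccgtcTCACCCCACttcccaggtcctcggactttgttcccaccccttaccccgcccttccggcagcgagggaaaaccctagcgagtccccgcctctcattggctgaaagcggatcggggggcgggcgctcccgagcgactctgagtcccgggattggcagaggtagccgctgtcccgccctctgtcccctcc
The CCAAT letters, searched on both strands, were found in 13 of the 17 windows of the 14 genes listed (76.5%) and in 16.1% of all windows. They are part of the Y box letters printed above. The sterol response element letters were found in 1 window, that of Hmgcs1, and in 1.24% of all windows.

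Inflammatory mediators had a median of 0.24 over 10 members, with 1 past 1.5-fold. The median was 0.12 with the level limit at the 40th percentile and 0.06 with none. The 1 member was the chemokine gene Ccl4, at 5.91 in wild-type and 6.12 in knockout cells at 12 h and 5.53 and 6.58 at 24 h, a contrast of 0.84. Knockout was the higher at both times and the genotypes went apart with time. Nlrp3, the inflammasome sensor, lay below 0 at -0.54 with the wild-type 24 h array high, and Tnf was at 0.42. The ATF4 stress list had a median of 0.23 over 16 members, with 10 above 0 and 1 past 1.5-fold, where all members had 52.5% above 0 and 5.71% past 1.5-fold in either direction. Atf3, a stress-induced factor, was at 9.98 and 10.08, then 9.40 and 10.12, a contrast of 0.62. The wild-type 24 h array was low for it, as it was for Ddit3, which encodes CHOP, at 0.39. The list's median was -0.01 with the level limit at the 40th percentile and -0.03 with none, so its sign depends on the dim members.

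Clock genes had a median of -0.01 over 13 members but held 4 past 1.5-fold, 2 in each direction. Among all members 5.71% were past 1.5-fold. Cry1, a repressor of the clock, was at 5.07 in wild-type and 5.01 in knockout cells at 12 h, then at 3.49 and 4.33 at 24 h, a contrast of 0.91. Bhlhe40, another repressor, was at 7.24 and 7.06, then 6.08 and 6.69, a contrast of 0.79. Both were lower at 24 h, the more so in wild type. Dbp, a clock output factor, was at 5.94 and 6.31, then 7.31 and 7.04, a contrast of -0.63, and Cry2 was at -0.79 with the wild-type 12 h array low. Nr1d1 at 0.03 and Per3 at 0.04 had almost equal time differences in the genotypes.

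**Figure D5:**
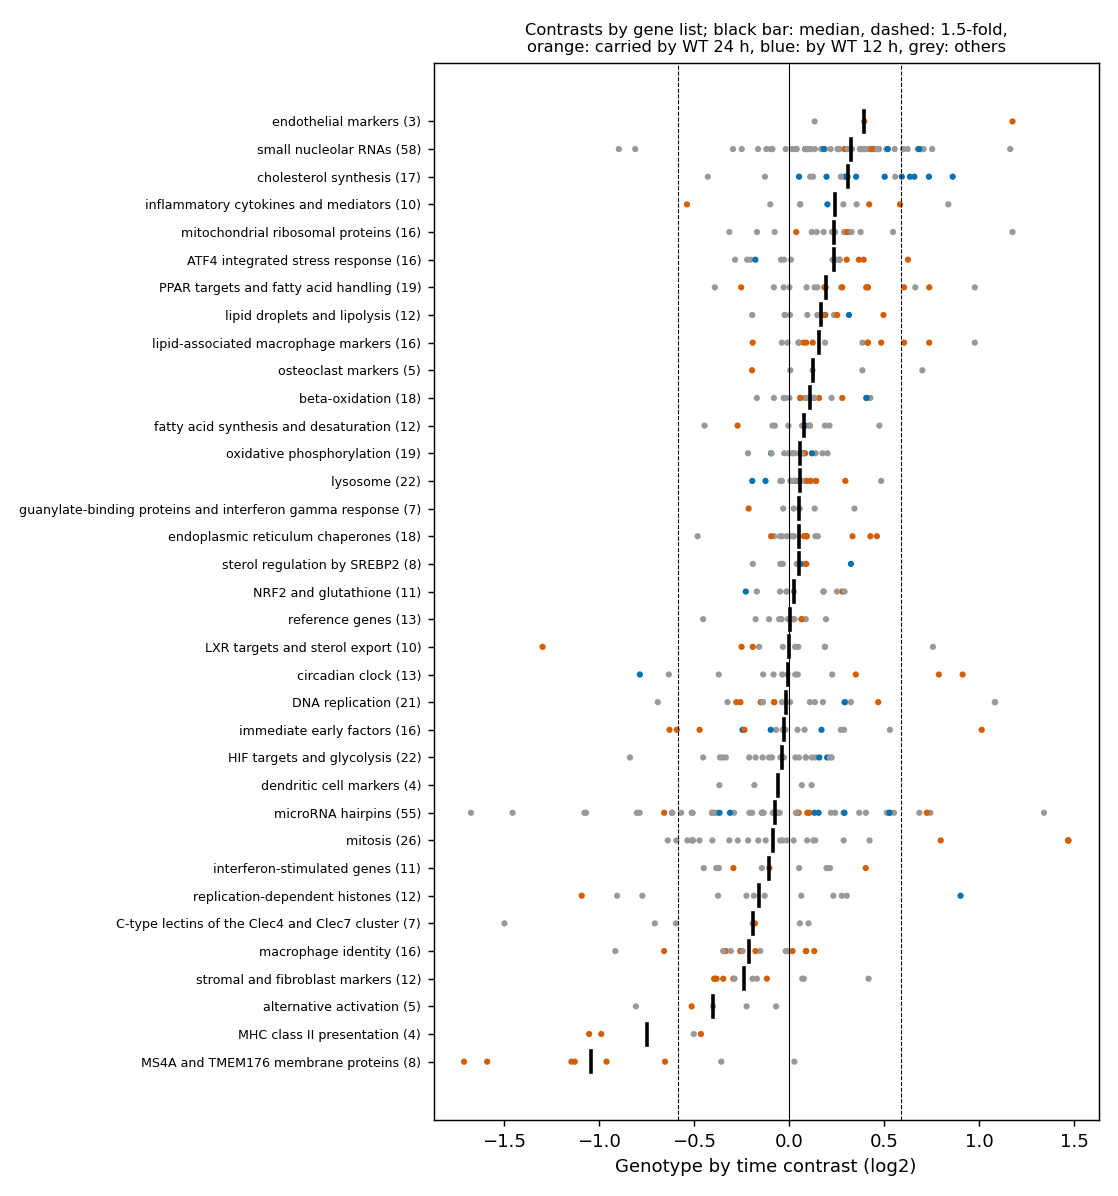
Genotype by time contrast in log2 (x axis) of every member probe set in the gene lists with at least 3 member genes (y axis, number of probe sets in brackets), with the median as a black bar and 1.5-fold as dashed lines. The medians run from -1.05 for the MS4A and TMEM176 genes to 0.39 for the 3 endothelial markers. Over all 8 measured endothelial genes, with no level limit, the median was -0.02. The blue points of the wild-type 12 h array gather in cholesterol synthesis.

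Diagonal splits, in which no single array stands apart, made up 20 of the 78 contrasts past 2-fold. Zfp944, a zinc finger gene with the highest contrast of all members, was at 5.42 in wild-type and 4.15 in knockout cells at 12 h, then at 4.75 and 5.25 at 24 h, a contrast of 1.78. Ppp1r2, an inhibitor of protein phosphatase 1, was at 5.70 and 5.30, then 5.0 and 6.03, a contrast of 1.42. Zfas1, a non-coding host of small nucleolar RNAs, was at 6.04 and 5.42, then 5.44 and 6.01, a contrast of 1.20. In all 3, knockout was the lower at 12 h and the higher at 24 h, with wild type going the other way. Among all 9409 members, whatever the size, 921 (9.79%) were diagonal, and among the receptor probe sets 16.8%. Over contrasts of any size this form was thus more common at background signal. Its share was 26.4% of the members past 1.5-fold and 25.6% of those past 2-fold. Others were Arl16, a small GTPase gene, at 1.46, Tnfsf9, the ligand of 4-1BB, at 1.15, Nlrp10 at 1.13, Gins2, of the replication helicase, at 1.08, Kansl2 at -1.19 and Ggn at -1.17. The other probe set of Kansl2 was at -0.48, and a brighter one of Zfas1 at 0.84.

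The remaining arrays carried few large contrasts. The knockout 12 h array was low in Smarcd1, a chromatin remodelling subunit gene, at 1.36, in Gstp1 at 1.27 and in Chaf1a, a histone chaperone gene, at 1.08. Gstp1, a glutathione transferase, was at 7.06 in wild-type and 6.42 in knockout cells at 12 h, then at 7.05 and 7.68 at 24 h. Wild type was at nearly the same level at both times, and knockout moved from below it to above it. The wild-type 12 h array carried Nme1, a nucleoside diphosphate kinase gene, at 1.37, Vcp at 1.12 and Rbm4b at -1.08. The knockout 24 h array was high in Eif3j1, a translation initiation subunit gene, at 1.25, in Zxda at 1.19 and in the clotting factor gene F9 at 1.02, and low in Srgap3 at -1.11. Both Smarcd1 and Vcp had a brighter probe set with a small contrast, -0.03 and 0.11, and the large values came from the dimmer one. Itga11, an integrin chain gene, was a genotype split at 4.35 in wild-type and 4.19 in knockout cells at 12 h, then 5.04 and 3.60, a contrast of -1.27. Mrpl32, a mitochondrial ribosomal protein gene, was a genotype split too, at 4.68 and 5.05, then 4.22 and 5.76, a contrast of 1.17. Its list had a median of 0.23 over 16 members with Mrpl32 alone past 1.5-fold.

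Small nucleolar RNAs, which guide the chemical modification of ribosomal RNA, formed a group noticed after the values were seen. Of 58 member probe sets, 49 had a contrast above 0, with a median of 0.33, against 52.5% above 0 over all members. By 1.5-fold 10 were higher and 2 lower, where all members had 3.24% and 2.47%. Their genotype difference was below 0 in 52 of 58 at 12 h and in 24 at 24 h, and the knockout 12 h array carried 14. Short genes in general had slightly higher contrasts. Over 5 equal bins of gene span from RefSeq the median contrast was 0.06, 0.04, 0.02, 0.00 and -0.03, from a median span of 4133 bases to 107837 bases. MicroRNA hairpins, which are short too, had a median of -0.08 over 55 members, with 4 higher and 9 lower.

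Neighbouring genes past 1.5-fold on the same side numbered 14 pairs, 3 of them past 2-fold in both. Neighbouring member pairs of any size were not counted, so the 14 have no share to be set against. These 3 were Tmem176b with Tmem176a, Pot1b with Adgre4, and Rpl37 with Snord72. Other pairs were H2-Ab1 with H2-Aa, Pilra at -0.74 with Pilrb1, Clec4a1 with Clec4a3, and Trp53cor1 at -0.62 with Cdkn1a, the p21 inhibitor gene, at -0.74. Members of 1 family that lie side by side can share probe sequence. This was not tested for the Tmem176, MHC, Pilr and Clec4 pairs.

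Where all 4 arrays lay at or above the 80th percentile of level, the largest contrasts were those of Clec4a1, Abca1, Bcl3, H2-Ab1 and Fabp4 given above. Plk2, a stress-induced kinase gene, followed on the side above 0, at 9.25 in wild-type and 9.38 in knockout cells at 12 h and 8.69 and 9.70 at 24 h, a contrast of 0.88. Npy, the neuropeptide Y gene, was at 9.57 and 8.88, then 7.86 and 8.03, a contrast of 0.85. Plk2 was lowest in wild type at 24 h, whereas Npy was highest in wild type at 12 h and lower at 24 h in both genotypes. Reference genes had a median of 0.00 over 13 probe sets with 0 past 1.5-fold.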

How the data were processed

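Levels were measured with whole-transcript arrays on 4 pools of macrophage RNA. Per the submitters' processing notes the authors used RMA, and the deposited table gives 1 log2 level per probe set and array. For the RMA version and annotation, the sources used here give none. The log2 scale was read from the deposited values, which ran from 0.63 to 13.21 with array medians of 2.70 to 2.73. RMA equalises the arrays' distributions, so the table cannot show a change common to all transcripts. The table held 0 columns without a sample. Of 41345 probe sets, 23521 had 1 symbol, 1814 several and 16010 none in the platform annotation. Only the first were used.

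Differences, contrasts and carrying arrays were computed with pandas 2.3.3 and numpy 2.4.6 in Python 3.11.15, with no test, because each group had 1 array and there was no residual. The steps were tested on simulated data. Members, lists and rules were chosen with earlier results of these data known, and 4 lists were added after the values were seen. Genes named were Hilpda, the 15 highest and 15 lowest contrasts, the 6 largest past 2-fold for each array and direction, the 8 largest diagonal splits, members with opposite genotype differences past 1.5-fold (up to 10), up to 4 members per list past 1.5-fold and the 10 largest in bright probe sets. Small RNA, receptor and clone-type names were passed over (11 of the 78 past 2-fold). Other list members and neighbouring genes are examples chosen after their values were seen. Promoters and gene order are from RefSeq tables of GRCm38.p6, used for names and sequence only. Alternatives changed the level limit, the scaling (median centring, quantile normalization, and loess with a span of 0.3), the probe set rule, the fold and the gap.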

Additional observations from a re-analysis of the deposited data

Results flagged for a closer look

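In 4 members the genotype difference was past 1.5-fold in opposite directions at 12 h and 24 h, which singled them out. The difference between the times was not tested, because each group had 1 array. Arl16 had a contrast of 1.46 from genotype differences of -0.68 and 0.78. Gstp1 had 1.27 from -0.64 and 0.63. Mir101c, a microRNA hairpin, had 1.34 from -0.61 and 0.73. Olfr1360, an olfactory receptor gene, had -1.75 from 0.95 and -0.80, and with a level of 3.79 in wild type at 12 h it lay near background.

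In 4 further members the time difference was past 1.5-fold in opposite directions in wild type and knockout, also untested. Zfp944 had a contrast of 1.78 from -0.67 in wild type and 1.11 in knockout, Ppp1r2 had 1.42 from -0.70 and 0.72, and Zfas1 had 1.20 from -0.61 and 0.59. Gm7241, a predicted gene, had -1.42 from 0.62 and -0.80. Of the 8, 6 were diagonal splits, Gstp1 was carried by the knockout 12 h array and Mir101c was a time split.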

How the results depend on the processing

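The counts given first are contrasts of at least 2-fold above 0, then below 0 (39 and 39 as reported), then those carried by wild type 24 h (39), by another single array (13) and diagonal splits (20). With the level limit at the 40th percentile they were 130, 145, 79, 66 and 113. At the 80th percentile they were 2, 4, 4, 1 and 0, and with no limit 211, 206, 93, 114 and 192. At 1.5-fold they were 305, 232, 193, 150 and 142, and at 3-fold 1, 6, 4, 1 and 2. Over all members, whatever the size, the carried counts were 2023, 2765 and 921. With a gap over 0.5 of the range of the other arrays, other single arrays carried 21 and diagonal splits were 9. With a gap over 2 times that range, wild type 24 h carried 18, others 2, and 40 were diagonal. With every array at or above the limit, 24 were above 0. Median centring, quantile normalization, 1 value per gene by either rule and identical probe sets counted once (added after seeing the data) kept each of the 5 counts within 1.5 times. Loess and a limit on any array, run for the counts above and below 0 alone, did so for those, and no scaling moved the median contrast by more than 0.0212.

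Some list medians turned sign. Among the larger ones, ATF4 was at -0.01 (-0.00967) with the limit at the 40th percentile and -0.03 (-0.0324) with none. Interferon-stimulated genes were at 0.0517 at the 80th percentile, and endothelial markers at -0.0157 with no limit. Medians nearer 0 turned too, such as DNA replication at 0.20 at the 80th percentile and microRNA hairpins at 0.04 with no limit. Dendritic cell markers were at 0.07 with the brightest probe set of each gene. Of the other list values 288 moved little and 23 moved more, and of the named genes' values 380 moved little and 9 moved more. With the brightest probe set of each gene Smarcd1 turned to -0.0270, while Vcp was at 0.11, Pgam1 at -0.36, Fabp5 at 0.41 and Zfas1 at 0.84. With the mean over probe sets Smarcd1 was at 0.66, Vcp at 0.62, Yae1d1 at 0.66, Abracl at 0.54 and Kansl2 at -0.84. No paired analysis was possible because each group had 1 array. The cause of these shifts was not tested. The number of arrays limits the precision, and 24 of the 78 large contrasts had an array under the level limit.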

Other observations

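Genes of glycolysis and of the HIF response had a median contrast of -0.04 over 22 probe sets, with 0 higher and 1 lower by 1.5-fold. That one was a dim probe set of Pgam1, a glycolytic mutase gene, at -0.84 with the knockout 12 h array high, and its brighter probe set was at -0.36. Oxidative phosphorylation had a median of 0.06 over 19 members, beta-oxidation of 0.11 over 18, lysosomal genes of 0.06 over 22 and chaperones of the endoplasmic reticulum of 0.05 over 18, each with 0 past 1.5-fold. DNA replication genes had a median of -0.02 over 21 members (0.20 with the level limit at the 80th percentile). Past 1.5-fold, Gins2 and Chaf1a were higher and Rrm2, a ribonucleotide reductase subunit gene, lower at -0.69. Among the immediate early factors, with a median of -0.03 over 16 probe sets, Ier3 was at -0.63 and Fosl2 at -0.59, both with the wild-type 24 h array high.

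Of the B cell markers 1 was a member, a probe set of the immunoglobulin gene Ighm. It was at 6.92 in wild-type and 6.30 in knockout cells at 12 h, then at 9.49 and 8.35 at 24 h, a contrast of -0.51. Both genotypes were higher at 24 h. Replication-dependent histone genes, a list added after the values were seen, had a median of -0.16 over 12 members (-0.77 with the level limit at the 80th percentile), with 1 higher and 3 lower. Itgb3, an integrin chain of osteoclasts, was at 0.70, and the osteoclast list had a median of 0.12 over 5 members. NRF2 targets were at a median of 0.02 over 11, fatty acid synthesis at 0.08 over 12, guanylate-binding proteins at 0.05 over 7 and dendritic cell markers at -0.06 over 4, with 0 past 1.5-fold in any of these.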
